A study of Bos taurus with 6 samples.

Results

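HSPB8, BAG3 and DNAJB4 are chaperone genes whose products take part in the disposal of damaged proteins in muscle. They were picked by name from the deposited table of a cattle muscle study, and all 3 were found among the 2040 genes of that table. The study set longissimus dorsi (a long back muscle) of Angus against that of Chinese Simmental cattle, with 3 RNA-seq libraries per breed. Angus is a beef breed. Both groups were 18 months old, were sampled at ribs 12 and 13, and differ in the labels by breed alone. The labels name no treatment. They are silent on whether each library is a different animal, and any p given here reflects only how these libraries scatter, which may be technical.

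In chaperone-assisted selective autophagy, the small heat shock protein HSPB8 holds misfolded clients and the co-chaperone BAG3 ties it to the HSP70 machinery. The ubiquitin ligase STUB1 then marks the client, and autophagosomes carry it to the lysosome. In muscle this route is known for clearing stretched or damaged filamin at the Z-disc, the structure that anchors thin filaments. DNAJB4 is a J-domain co-chaperone that delivers clients to HSP70. In people, mutations in each of the 3 genes are known causes of inherited muscle disease.

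All genes in the table had been selected by the authors for a breed difference. The smallest absolute log2 fold change in the authors' deposited table was 1.00 and the largest adjusted p was 0.0492. A separation of the breeds was thereby set for every gene below before any test, and tests on these libraries are not independent evidence of it. In the edgeR quasi-likelihood test 1987 of 1989 tested genes (99.9%) passed a Benjamini-Hochberg adjusted p of 0.05, and 24.9% were called higher and 75% lower in Angus. The 2 breeds did not overlap for 90.3% of all listed genes. Counts over the listed genes summed to between 12010803 and 28883725 per library. The full depth of a library is unknown here. Levels are given as normalized counts, the deposited counts after division by size factors that the authors used, and log2 fold changes are Angus over Chinese Simmental ± standard error. TMM scaling, whose factors were estimated from these selected genes alone, moved log2 fold changes toward Angus by a median of 1.36, and genes whose direction turned under it are named. Of the genes in the chaperone, autophagy and related lists below, all 25 called lower in Angus lost that call with TMM and with RLE, another scaling of this kind, and kept it with library totals implied by the ratio of counts to FPKM. The 5 called higher, HSPB8 and DNAJB4 among them, kept their calls under all 3 scalings. A shift toward Angus works against lower calls and in favour of higher ones.

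The 3 genes did not move one way. HSPB8 and DNAJB4 were higher in Angus, while BAG3, the partner that binds HSPB8, was lower in Angus with the authors' scaling, a call that was lost with TMM and RLE.

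HSPB8 had the widest difference of the 3. It stood at 466, 478 and 251 normalized counts in Angus replicates 1 to 3, against 29.4, 58.7 and 46.6 in Chinese Simmental replicates 1 to 3. The breeds did not overlap, since the lowest Angus library lay far above every Chinese Simmental library. The means were 399 ± 128 in Angus and 44.9 ± 14.7 in Chinese Simmental (SD, n = 3 each), an 8.88-fold difference. The log2 fold change was 3.14 ± 0.53, with an adjusted p of 0.00341 in the edgeR quasi-likelihood test. In the authors' deposited table the log2 value, turned to Angus over Chinese Simmental, was 2.96, which placed HSPB8 at rank 23 by size among the 509 genes higher in Angus. Counts were low in Chinese Simmental. The lowest library had 28 reads, for which the exact Poisson 95% interval of 18.6 to 40.5 covers counting error only.

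BAG3 ran the other way. It had 538, 749 and 586 normalized counts in Angus replicates 1 to 3, against 2276, 1079 and 1413 in Chinese Simmental replicates 1 to 3. Here too the breeds did not overlap, but Chinese Simmental replicate 1 stood well above the other libraries of its breed. Means were 624 ± 111 in Angus and 1589 ± 618 in Chinese Simmental (SD, n = 3 each), so that BAG3 was 2.55-fold lower in Angus. Its log2 fold change was -1.35 ± 0.42 (edgeR adjusted p = 0.0152). Without Chinese Simmental replicate 1 it was -0.996. With TMM it was -0.0732 ± 0.474 (adjusted p = 0.935) and with RLE -0.0895 ± 0.512 (adjusted p = 0.922), so the call depends on the scaling. Both sets of factors come from the selected genes and moved log2 fold changes toward Angus by a median of 1.36 (TMM) and 1.35 (RLE). A shift of that size by itself brings a value of -1.35 near 0, so these losses cannot decide whether BAG3 differs. Library totals implied by counts and FPKM gave -1.38 ± 0.46 (edgeR adjusted p = 0.0190). BAG3 held rank 1209 of the 1531 genes lower in Angus by the size of the authors' deposited log2 value, so most genes of that direction differed more.

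DNAJB4 showed the narrowest gap between breeds. Angus replicates 1 to 3 had 352, 863 and 466 normalized counts, against 251, 269 and 226 in Chinese Simmental replicates 1 to 3. The lowest Angus library lay close above the highest Chinese Simmental library, and Angus replicate 2 was the highest of all. DNAJB4 averaged 560 ± 268 in Angus and 249 ± 21.3 in Chinese Simmental (SD, n = 3 each), which is 2.25-fold higher in Angus. The log2 fold change of 1.17 ± 0.47 had an edgeR adjusted p of 0.0328. The call was lost when any library other than Angus replicate 1 was left out, and without Angus replicate 2 the value was 0.72 (adjusted p = 0.190). DNAJB4 was at rank 441 of 509 by the authors' deposited log2 value.

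**Figure D1:**
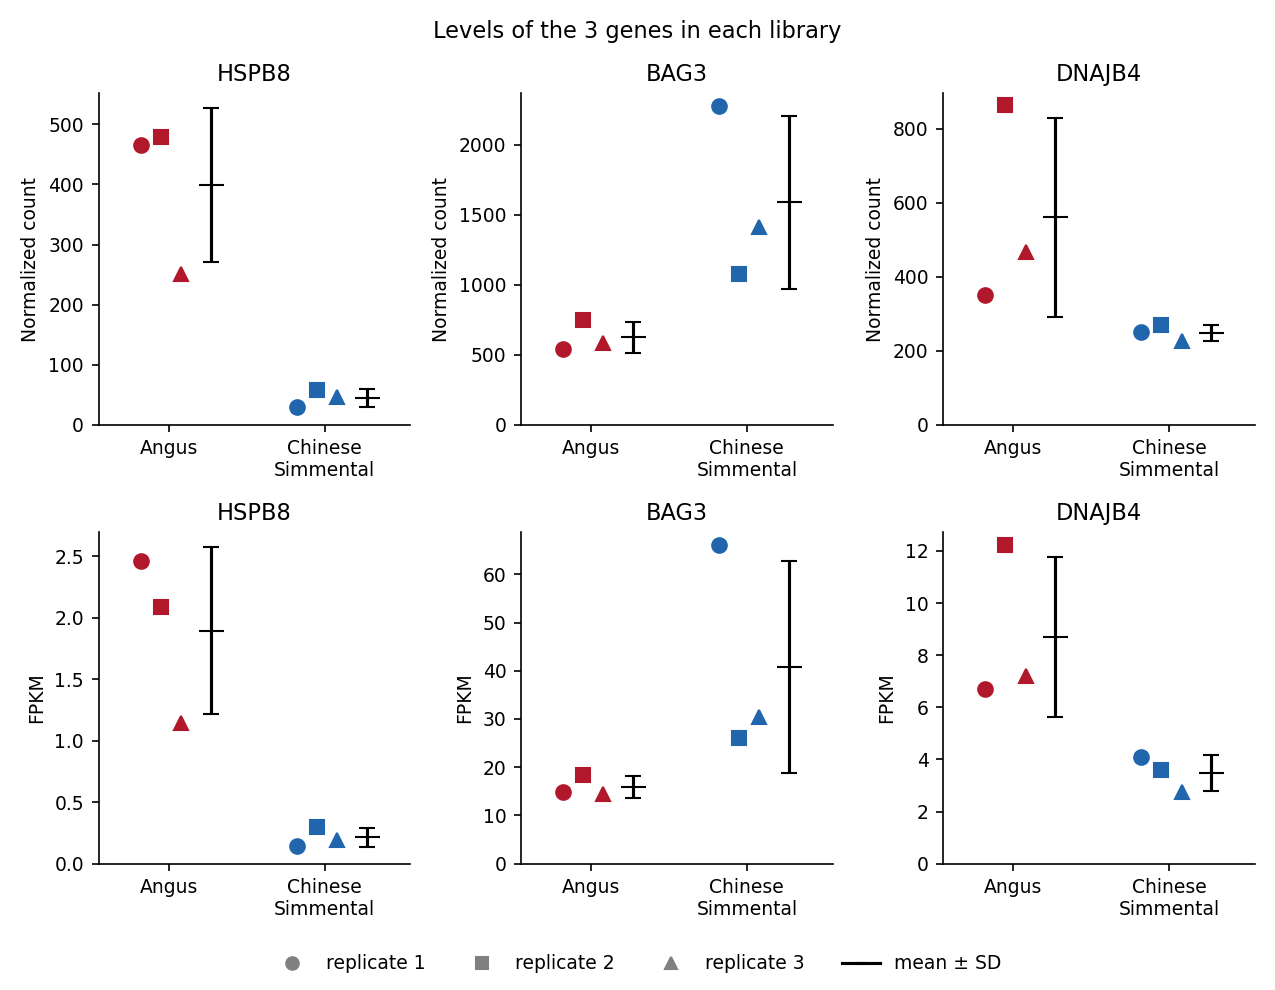
Normalized counts (upper row) and FPKM (lower row) of HSPB8, BAG3 and DNAJB4 in each library, with Angus left of Chinese Simmental and the mean ± SD beside the points. Angus points lie above all Chinese Simmental points for HSPB8 and DNAJB4 and below them for BAG3, and Chinese Simmental replicate 1 is the high BAG3 library at 2276 normalized counts.

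The spread within a breed was not shared by the genes. HSPB8 varied by a similar share in both breeds, with a coefficient of variation of 32.1% in Angus and 32.7% in Chinese Simmental. DNAJB4 varied by 47.9% in Angus and by 8.55% in Chinese Simmental, and BAG3 by 17.7% in Angus and 38.9% in Chinese Simmental. Angus replicate 2 had the highest normalized count of its breed for all 3 genes. This library also had the smallest size factor of the 6, at 0.801. In FPKM, the authors' length-scaled unit, Angus replicate 1 was highest for HSPB8, at 2.46 against 2.09 in Angus replicate 2. Chinese Simmental replicate 1 combined the highest BAG3 level of all libraries with the lowest HSPB8 level of all.

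A ratio of 2 genes within a library is free of the scaling between libraries. HSPB8 had 86.6%, 63.8% and 42.9% as many reads as BAG3 in Angus replicates 1 to 3, against 1.29%, 5.44% and 3.30% in Chinese Simmental replicates 1 to 3. BAG3 reads outnumbered HSPB8 reads in every library, by 1.15, 1.57 and 2.33 to 1 in Angus replicates 1 to 3 and by 77.3, 18.4 and 30.3 to 1 in Chinese Simmental replicates 1 to 3. The mean log2 ratio was -0.69 ± 0.51 in Angus and -5.13 ± 1.05 in Chinese Simmental (SD, n = 3 each), a difference of 4.44 or 21.7-fold.

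DNAJB4 had 65.3%, 115% and 79.5% as many reads as BAG3 in Angus replicates 1 to 3, against 11.0%, 24.9% and 16.0% in Chinese Simmental replicates 1 to 3. The log2 ratio differed by 2.36 between the breed means. For HSPB8 to DNAJB4, which are both higher in Angus, the ratio was 133%, 55.4% and 53.9% in Angus, against 11.7%, 21.8% and 20.6% in Chinese Simmental. The log2 difference was 2.08, with a wider breed difference for HSPB8 than for DNAJB4 in these libraries. Breeds did not overlap in any of the 3 ratios. The exact two-sided permutation test gave p = 0.1 for each, also after adjustment over the 3 ratios, and 0.1 is the smallest p that 3 against 3 libraries allow. Since the genes were in the table for their breed differences, the separation of the ratios that pair BAG3 with either of the others follows from that selection.

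**Figure D2:**
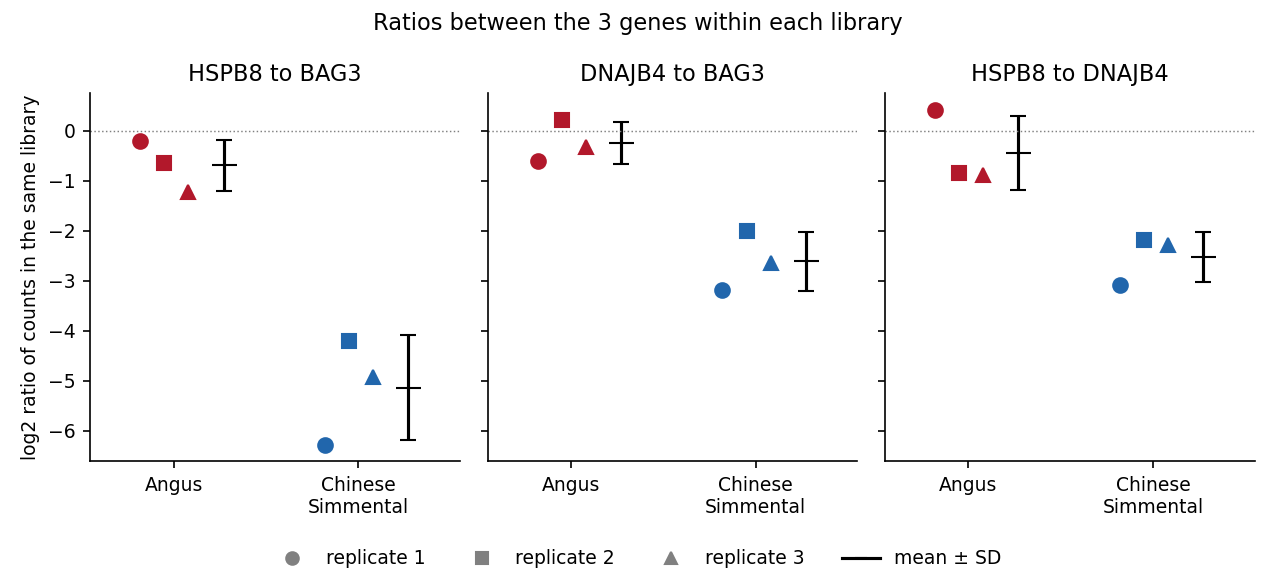
Log2 ratios of counts of 2 genes in the same library, by breed, with Angus left of Chinese Simmental and the mean ± SD beside the points. The HSPB8 to BAG3 ratio has means of -0.69 in Angus and -5.13 in Chinese Simmental, the widest gap of the 3 panels.

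On the FPKM scale BAG3 was the most abundant of the 3 genes in every library. BAG3 had 14.8, 18.5 and 14.4 FPKM in Angus replicates 1 to 3, against 66.1, 26.0 and 30.4 FPKM in Chinese Simmental replicates 1 to 3. DNAJB4 came next, at 6.69, 12.2 and 7.19 FPKM in Angus and 4.11, 3.58 and 2.75 FPKM in Chinese Simmental. HSPB8 was lowest, at 2.46, 2.09 and 1.14 FPKM in Angus and 0.146, 0.300 and 0.195 FPKM in Chinese Simmental. In both breeds neighbours in this order did not overlap. Of all listed genes 62.9% had a lower mean FPKM than BAG3, 38.8% a lower one than DNAJB4 and 17.0% a lower one than HSPB8.

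By normalized counts in Angus, the range of DNAJB4 overlapped those of BAG3 and HSPB8, while BAG3 and HSPB8 did not overlap. FPKM divides reads by the length of the counted feature, so reads per FPKM unit grow with that length and with depth. HSPB8 had 212 reads per FPKM unit (geometric mean over 6 libraries), DNAJB4 67.2 and BAG3 39.9. Reads per FPKM unit were thus 5.32 times as many for HSPB8 as for BAG3. Feature lengths were not available here, so whether this ratio reflects length was not tested. Across 1487 listed genes with at least 50 reads in each library, the 5th and 95th percentiles were 5.44 and 664 reads per FPKM unit. LAMP2 stood at 4.62 and CTSF at 2.34, so FPKM levels of different genes in this table are compared here with reserve. Within one gene the ratio was steady over libraries, with an SD on the log2 scale of 0.15 for HSPB8, 0.24 for BAG3 and 0.25 for DNAJB4.

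**Figure D3:**
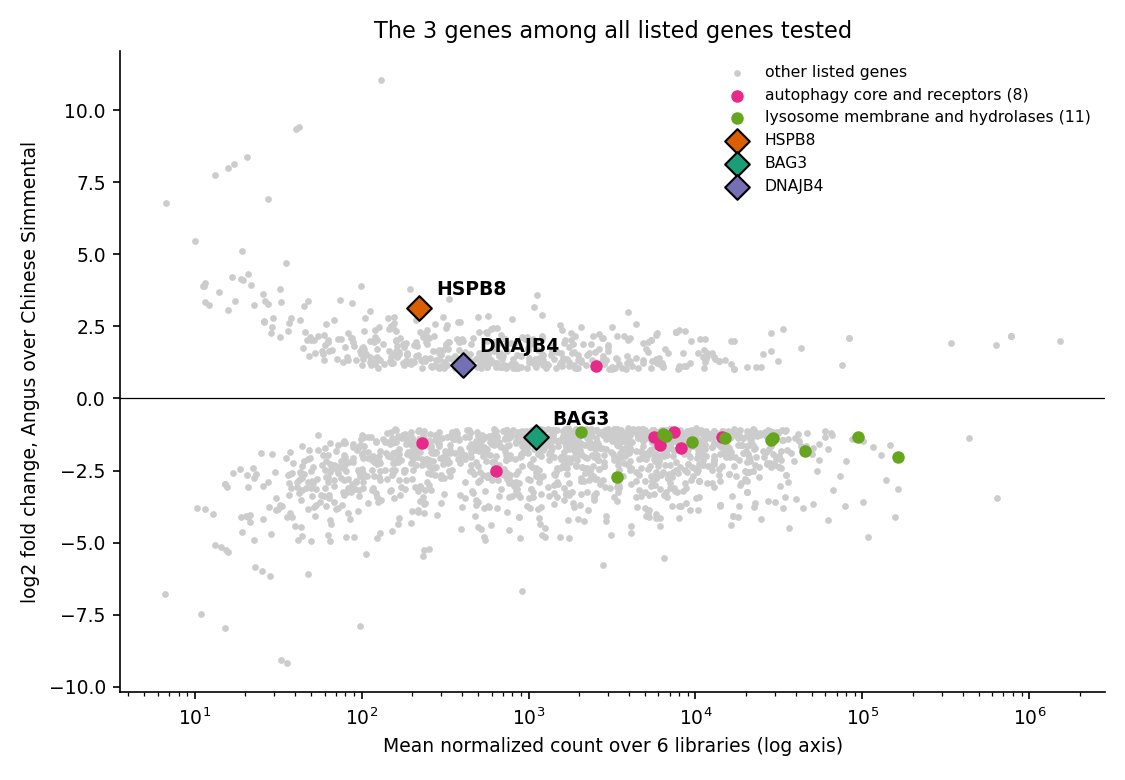
Log2 fold change (Angus over Chinese Simmental) against mean normalized count on a log axis for all 1989 tested genes, with the 3 genes as diamonds and listed autophagy and lysosome genes as coloured points. The empty band around 0 is the authors' selection, HSPB8 lies at 3.14 and BAG3 at -1.35 near the lower edge of that band.

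Few other chaperones were in the table. Besides HSPB8, HSPB2 was the only listed member of 11 small heat shock protein genes, and it was 10.2-fold lower in Angus with the authors' scaling. HSPB2 had 45.4, 21.2 and 23.6 normalized counts in Angus replicates 1 to 3, against 45.2, 389 and 489 in Chinese Simmental replicates 1 to 3. Chinese Simmental replicate 1 thus lay within the Angus range, and the breeds overlapped. The log2 fold change was -3.34 ± 0.84 (edgeR adjusted p = 0.00771), and -1.86 with TMM (adjusted p = 0.0907). In RefSeq's annotation of assembly ARS-UCD2.0 HSPB2 lies beside CRYAB, another small heat shock gene, and the best Swiss-Prot match in the deposited annotation of HSPB2 is the alpha-crystallin B chain, the product of CRYAB. Reads of these neighbours could be shared in the counting, so the level of HSPB2 is uncertain.

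BAG3 was the only listed gene of the 6 BAG family members, and the only listed gene annotated with a BAG domain. Of 17 DNAJA and DNAJB co-chaperones 2 were listed, DNAJB4 and DNAJB13. DNAJB13, a J-domain protein of cilia and sperm tails, was 3.83-fold lower in Angus, at 549 ± 66.6 against 2105 ± 886 in Chinese Simmental (SD, n = 3 each; edgeR adjusted p = 0.00558). With TMM its log2 fold change of -1.94 became -0.514 (adjusted p = 0.293). None of the 26 DNAJC genes and 6 heat shock factor genes looked for was among the listed genes. From 42 HSP70, HSP90, HSP110 and chaperonin genes, HSPA4L, a member of the HSP110 group, was listed. It was 2.51-fold higher in Angus at 85.5 ± 14.01 in Angus against 34.1 ± 7.20 in Chinese Simmental (SD, n = 3 each; edgeR adjusted p = 0.0352), a call lost when any single library was left out, with log2 values of 1.16 to 1.46, and also with the replicate number as a block (1.33, adjusted p = 0.0647).

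The deposited annotation adds one entry with an Hsp90 domain, LOC107131398, annotated as heat shock protein HSP 90-alpha A2 and named here after its values were seen. It had 42.8, 83.7 and 61.03 normalized counts in Angus, against 1146, 3185 and 56.3 in Chinese Simmental replicates 1 to 3. Chinese Simmental replicate 3 lay within the Angus range, so the breeds overlapped. Its log2 fold change was -4.55 ± 1.13 (edgeR adjusted p = 0.00727), -3.27 without Chinese Simmental replicate 2 and -3.63 with the replicate block, and with RLE the call was lost (-3.29, adjusted p = 0.0508). HSP90 copies share sequence, and reads could have been split among them. Across the 7 listed genes with Hsp20, BAG, DnaJ, Hsp70 or Hsp90 domains, HSPB8, DNAJB4 and HSPA4L were higher and the other 4 lower in Angus. Of all tested genes 24.9% were called higher and 75% lower.

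Among 19 partners of chaperone-assisted autophagy, 4 were listed, of which 2 were called higher and 2 lower in Angus, against 24.9% higher and 75% lower among all tested genes. The count includes HSPB8 and BAG3 themselves. Beyond HSPB8 and BAG3 these were VPS18 and LAMP2. VPS18, a subunit of the complexes that tether autophagosomes to lysosomes, was 2.18-fold higher in Angus. It had 3881, 4219 and 2395 normalized counts in Angus replicates 1 to 3 and 2190, 1053 and 1576 in Chinese Simmental replicates 1 to 3. The log2 fold change of 1.12 ± 0.41 (edgeR adjusted p = 0.0253) lost its call without Angus replicate 1 or 2 or Chinese Simmental replicate 2 or 3. LAMP2, a lysosomal membrane protein, was 2.35-fold lower in Angus at 3810 ± 164 against 8940 ± 2122 (SD, n = 3 each; edgeR adjusted p = 0.0111). Its log2 fold change was -1.23 with the authors' factors and 0.13 with TMM. STUB1, HSPA8, SQSTM1 and the filamins were not among the listed genes.

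Most listed autophagy genes were lower in Angus with the authors' scaling, as were most listed genes. Of 50 core autophagy genes and receptors 8 were listed, 7 of them called lower in Angus and only VPS18 higher, against 75% lower among all tested genes. The median log2 fold change of the 8 was -1.44, and that of all tested genes was -1.57. The share and the median were near those of the table. ULK1, the kinase that starts autophagosome formation, had 3308, 2611 and 3015 normalized counts in Angus replicates 1 to 3, against 3722, 11218 and 12661 in Chinese Simmental replicates 1 to 3. Chinese Simmental replicate 1 lay close to the Angus libraries (log2 fold change -1.63 ± 0.47, edgeR adjusted p = 0.0124).

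GABARAPL1, an ATG8 protein of the autophagosome membrane, was 2.49-fold lower in Angus, at 3243 ± 498 against 8085 ± 2784 in Chinese Simmental (SD, n = 3 each). WIPI1, which binds the membrane of forming autophagosomes, was 5.72-fold lower at 190 ± 131 against 1087 ± 799. Its log2 fold change of -2.51 was -3.19 without Angus replicate 1 and -1.75 without Chinese Simmental replicate 3. ATG16L2, ATG3, which attaches lipid to ATG8 proteins, ATG2A, a lipid transfer protein, and TP53INP2 had log2 fold changes of -1.71 ± 0.41, -1.15 ± 0.38, -1.33 ± 0.47 and -1.55 ± 0.56. Calls for ATG3, ATG2A and TP53INP2 were lost without Angus replicate 2 or without Chinese Simmental replicate 3, among others, and 4 of the 8 genes were called lower in each of these fits. ATG2A, ATG3 and GABARAPL1 turned direction with TMM, which called none of the 8 lower in Angus.

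Within its breed, Chinese Simmental replicate 1 had the lowest normalized count for 6 of the 8 autophagy genes. For lysosome genes Chinese Simmental replicate 2 was the lowest of its breed in 9 of 11. How often each library was lowest over all listed genes is not given here. Counts over the listed genes summed to 12799174, 22178270 and 28883725 in Chinese Simmental replicates 1 to 3, at size factors of 0.951, 1.09 and 1.03. Whether these places go with the BAG3 level of a library was not tested.

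All 11 listed genes of 32 lysosome membrane and hydrolase genes were called lower in Angus, where 75% of all tested genes were called lower and 99.9% were called in either direction. Their median log2 fold change was -1.38 against -1.57 for all tested genes. Cathepsin D (CTSD), an aspartic protease that digests autophagic cargo, had 53515 ± 7148 normalized counts in Angus and 133728 ± 36600 in Chinese Simmental (SD, n = 3 each). Its log2 fold change of -1.32 ± 0.41 had an edgeR adjusted p of 0.0157 and lost its call without Angus replicate 2. Prosaposin (PSAP), the precursor of activators of lipid breakdown, was 4.09-fold lower in Angus, the protease CTSC 2.87-fold, LAMP1 2.74-fold and the cholesterol carrier NPC2 2.61-fold, with edgeR adjusted p between 0.00602 and 0.0108. CTSF and CTSH had log2 fold changes of -1.28 ± 0.37 and -1.37 ± 0.49, and CTSB, LIPA and SCARB2 ranged from -2.71 to -1.16. With TMM, LAMP2, CTSD, CTSF and SCARB2 turned direction and none of the 11 was called. Without 1 library, 8 to 11 of them were called lower in Angus. CTSH overlapped between the breeds, and its call was lost in 4 of the 6 fits that left out a library.

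**Figure D4:**
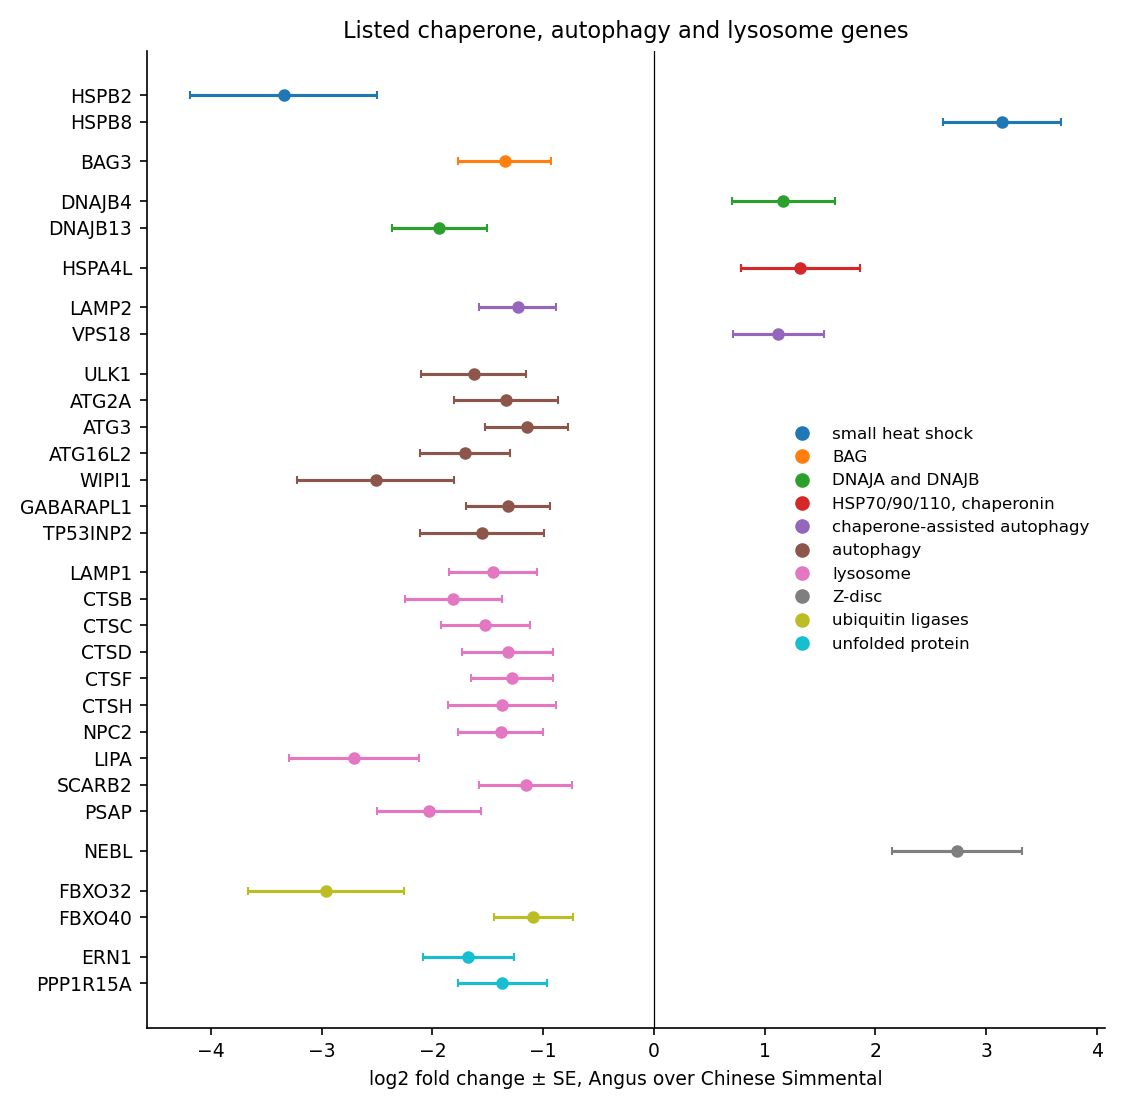
Log2 fold change ± standard error (Angus over Chinese Simmental) of every listed gene of the chaperone, autophagy, lysosome, Z-disc, ubiquitin ligase and unfolded protein lists, with a gene of several lists drawn once. HSPB8, DNAJB4, HSPA4L, VPS18 and NEBL lie right of 0 and the others left of it.

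Of 25 Z-disc genes, among them the clients of this route, NEBL alone was listed. NEBL (nebulette), an actin-binding Z-disc protein, was 6.71-fold higher in Angus at 119 ± 28.1 against 17.8 ± 6.09 (SD, n = 3 each; log2 fold change 2.74 ± 0.59, edgeR adjusted p = 0.00488). BAG3 is itself annotated to the Z disc in the deposited annotation, as are 6 other listed genes. Of these 7 genes NEBL and NEXN were higher and 5 lower in Angus, near the 24.9% higher and 75% lower of all tested genes. NEXN, an actin-binding Z-disc protein, was named after its values were seen. It is also a near neighbour of DNAJB4 in RefSeq's annotation of assembly ARS-UCD2.0, with FUBP1 between them. NEXN had 520, 741 and 353 normalized counts in Angus replicates 1 to 3, against 210, 280 and 223 in Chinese Simmental replicates 1 to 3. As with DNAJB4, Angus replicate 2 was the highest library. The log2 fold change was 1.18 ± 0.45 (edgeR adjusted p = 0.0280), and the call was lost without Angus replicate 1 or 2 or Chinese Simmental replicate 1 or 3. NEXN was listed at 0 FPKM in Angus replicate 2 and Chinese Simmental replicate 1 in spite of these counts, so its FPKM is not used. The adjacent protein-coding neighbours of HSPB8 (CCDC60 and SRRM4), BAG3 (TIAL1 and INPP5F) and DNAJB4 (GIPC2 and FUBP1) were not among the listed genes.

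From 16 muscle and chaperone-client ubiquitin ligases, FBXO32 and FBXO40 were listed and lower in Angus. For these and the unfolded protein genes below, the share called lower among all tested genes was 75%. FBXO32 (atrogin-1), which drives muscle protein breakdown, was 8.08-fold lower on few reads, at 3.33 ± 1.38 against 26.9 ± 6.56 normalized counts (SD, n = 3 each; edgeR adjusted p = 0.00662), and its counts are shared with a second listed name. With TMM its log2 fold change was -1.61 (adjusted p = 0.101), against -2.96 with the authors' scaling. FBXO40 was 2.13-fold lower, lost its call without Angus replicate 2 or 3 or Chinese Simmental replicate 3, and turned direction with TMM. Of 21 unfolded protein response genes, the stress sensor ERN1 (IRE1) was 3.20-fold and the phosphatase subunit PPP1R15A (GADD34) 2.59-fold lower in Angus. With TMM, ERN1 had a log2 fold change of -0.322 (adjusted p = 0.562) and PPP1R15A turned direction.

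Genes with the most similar pattern were sought among 1456 other genes with a symbol and a mean of at least 100 normalized counts, by Pearson's r of log2 values over the 6 libraries. These values are descriptions, since the breed difference shared by all listed genes sets much of them. SLFN11 (0.994), COL4A2 (0.994), ARPC5L (0.992), HDAC9 (0.992) and C29H11orf54 (0.991) were most like HSPB8. Nearest to BAG3 were STXBP6 (0.982), NUPR1 (0.977), ROR2 (0.976), ANXA2 (0.968) and BUB1 (0.966). For DNAJB4 they were ANKH (0.956), SERPINI1 (0.946), EHD3 (0.946), CIP2A (0.944) and RAPGEF3 (0.930). None of the 3 genes was among the nearest of another.

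With the breed means subtracted, COL4A2 (0.959) and SLFN11 (0.952) were again near HSPB8, together with ADGRG5 (0.982), DHRS7 (0.949) and EFHB (0.933). With the authors' scaling DHRS7 and EFHB are lower in Angus, while HSPB8 is higher there. Genes near BAG3 were then ZNF420 (0.989), CD40 (0.985), PPA2 (0.976) and P2RY1 (0.973), of which the first 3 are higher in Angus while BAG3 is lower there. DNAJB4 was nearest to DSCC1 (0.969), KIR2DL5A (0.910), ANKLE1 (0.904), ANKH (0.904) and CIP2A (0.898). Of these, KIR2DL5A is lower in Angus, while DNAJB4 is higher there. Within breeds HSPB8 and BAG3 had r = -0.53, HSPB8 and DNAJB4 0.20 and BAG3 and DNAJB4 0.37 over the 6 libraries. The similar genes named here are the highest of 1456 candidates over only 6 libraries, where high r can also arise between unrelated genes. How high r runs among unrelated genes was not tested, so the values with breed means subtracted are also descriptions only.

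Markers of several cell types differed between the same libraries. In bulk tissue, fewer cells of a type and less RNA per cell cannot be told apart. Of 32 muscle fibre markers 6 were listed, with 4 called higher (TNNT3, NEB, MYBPC2 and COX6A2) and 2 lower (RYR1 and TPM1) in Angus. Among all tested genes the shares were 24.9% higher and 75% lower. TPM1 turned direction with TMM. Summed over the 6 genes, normalized counts were 2911 to 4565 in Angus and 4667 to 6343 in Chinese Simmental. Mean FPKM of these 6 genes ran from 0.779 (MYBPC2) to 98.2 (TPM1) in Angus and from 0.254 (MYBPC2) to 249 (TPM1) in Chinese Simmental. The listed B cell markers ran from 10.5 (VPREB3) to 298 (CD79B) and from 2.92 (VPREB3) to 95.6 (CD22), in the same order of breeds. Neutrophil markers ran from 1.11 (MMP9) to 278 (S100A12) and from 19.5 (MMP9) to 2292 (S100A12). Monocyte and macrophage markers ran from 0.230 (CD300LF) to 1264 (LYZ) and from 2.57 (CD300LF) to 20516 (LYZ). Natural killer and cytotoxic markers ran from 1.41 (NCR1) to 91.3 (PRF1) and from 3.20 (NCR1) to 207 (PRF1). The other fibre markers looked for, such as ACTA1 and the myosin heavy chains, were not among the listed genes. Their levels are unknown here. Whether the libraries hold mainly the labelled tissue was not tested.

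White blood cell markers stood at higher sums. All 13 listed of 15 B cell markers were called higher in Angus, where they summed to 222426 to 307491, against 60231 to 89069 in Chinese Simmental. All 6 listed of 13 neutrophil markers were called lower in Angus, at 48960 to 86977 against 577280 to 1040920, and so were all 9 listed of 11 monocyte and macrophage markers, at 16556 to 42480 against 121390 to 314752. The 5 listed of 9 natural killer and cytotoxic markers were also called lower, at 10630 to 11491 against 14512 to 37750. Among all tested genes 24.9% were called higher and 75% lower in Angus. With TMM the calls of these 5 and of the monocyte and macrophage markers CSF1R, FCGR3A and AIF1 were lost. No listed marker of these lists was at 0 in any library. The part of these differences in the levels of HSPB8, BAG3, DNAJB4 and the autophagy and lysosome genes was not tested.

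With TMM, HSPB8 was at 4.52 ± 0.56 and DNAJB4 at 2.51 ± 0.53 on the log2 scale. Library totals implied by the ratio of counts to FPKM, which do not rest on the selected genes' fold changes, left BAG3 at -1.38 ± 0.46 (adjusted p = 0.0190), HSPB8 at 3.20 ± 0.56 and DNAJB4 at 1.16 ± 0.49.

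**Figure D5:**
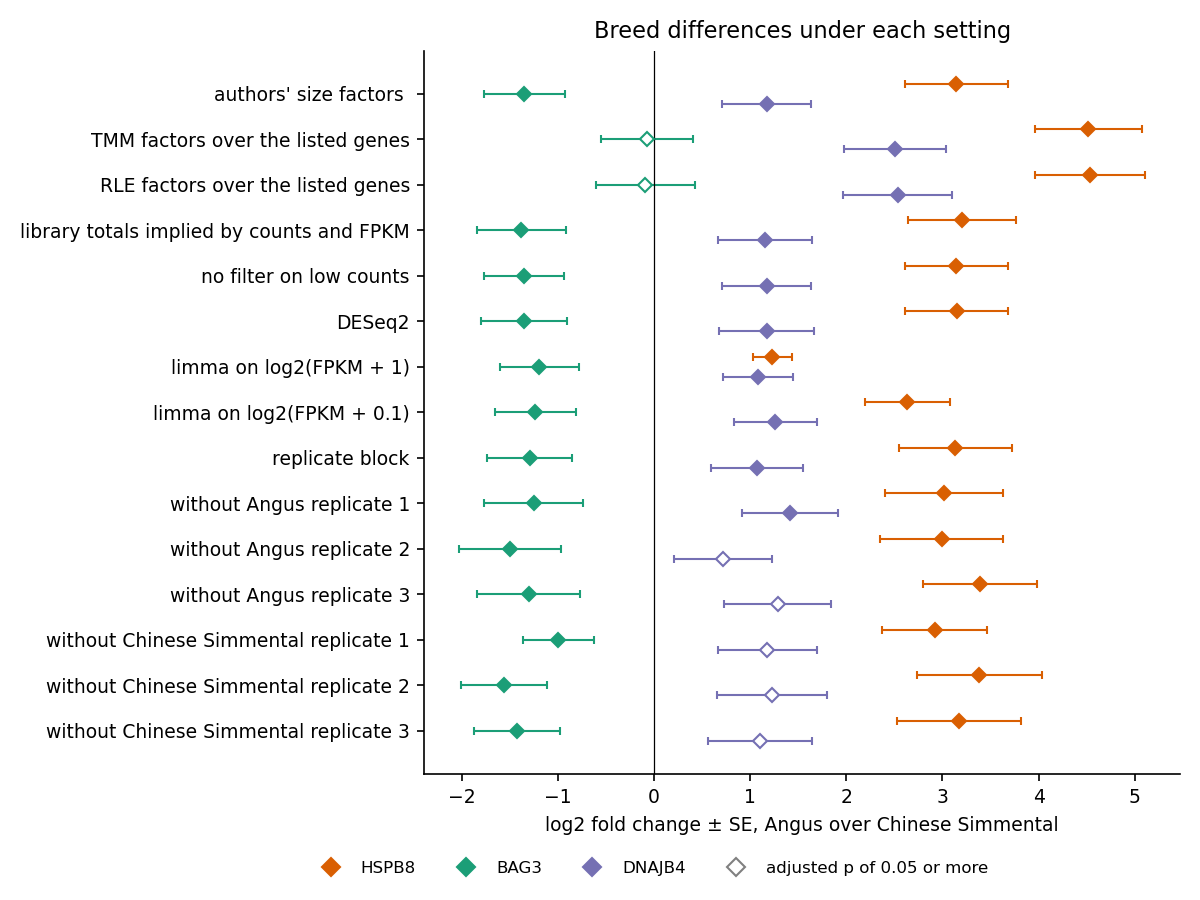
Log2 fold change ± standard error (Angus over Chinese Simmental) of the 3 genes under each scaling, tool, unit and left-out library, with open diamonds where the adjusted p was 0.05 or more. HSPB8 lies right of 0 and filled throughout, BAG3 is open with TMM and RLE factors, and DNAJB4 is open in 5 of the 6 fits that leave out a library.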

How the data were processed

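RNA-seq libraries were made with an Illumina mRNA kit from 1 µg of total RNA, per the labels' protocols. The submitters' processing notes name HISAT2 and the build ARS-UCD1.2. Counting tool, strand setting and annotation: not given in the sources used here. Per the file headers, the deposited table holds whole-number counts, FPKM, group means of scaled counts (a signal), and results of the authors' own comparison (p-value, its adjusted form, and log2 ratio of the breeds). The authors kept selected genes only. The table has 2040 genes and 1 blank row, left out.

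Samples were grouped by title. The authors' size factors were solved from their group means and used in edgeR 4.0.16 (R 4.3.3; filterByExpr, minimum count 10; breed as the only term; Benjamini-Hochberg over 1989 genes). Alternatives used TMM, RLE, totals implied by FPKM, no filter, DESeq2 1.42.0, limma 3.58.1 on log2(FPKM + 1) and log2(FPKM + 0.1), a replicate block, and leaving out each library. Simulated counts with the 2 breeds' library sizes (1981 genes, of which 1781 were unchanged) were tested the same way. There edgeR called 0.337% of unchanged genes, 7% of those changed by 1 on the log2 scale and 52% of those changed by 2. Among the listed genes, by contrast, 1987 of 1989 were called. The Benjamini-Hochberg adjustment depends on how many genes differ, so these rates cannot be carried over to calls of the listed genes. Same-numbered libraries of the 2 breeds deviated together (r of 0.27, 0.16 and 0.25 over genes), which is over the 0.1 set for treating the numbers as pairs. Angus replicate 3 and Chinese Simmental replicate 2 also had r = 0.22, above the second pair, and the labels name no shared animal or batch, so the pairing is uncertain.

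Named genes were the 3 members, every listed gene of 12 lists, and the 5 most similar genes by each of 2 measures, of which 1 is not reported here. For 1749 names a RefSeq symbol was found (assembly ARS-UCD2.0), and no coordinates are printed because the builds differ. Members, lists and tests were chosen with earlier results of these data known.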

Additional observations from a re-analysis of the deposited data

How the results depend on the processing

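HSPB8 kept its direction and its call under all alternatives run, with log2 fold changes from 1.23 (limma on log2(FPKM + 1), where the pseudocount is near its level) to 4.54 (RLE). BAG3 kept its direction and lost its call with TMM (-0.0732) and RLE (-0.0895) factors over the listed genes, which centre the selected genes. DNAJB4 lost its call in 5 of the 6 fits without 1 library, which ranged from 0.72 to 1.42. BAG3 ranged there from -1.56 to -0.996 and HSPB8 from 2.92 to 3.39. With the replicate block the values were 3.13 for HSPB8, -1.29 for BAG3 and 1.07 for DNAJB4 (edgeR adjusted p = 0.0463), and the block changed no call of the 3 genes. It ended the calls of HSPA4L and, among markers, NCR1, and no other call of the listed genes of these lists. Calls over all listed genes were 495 higher and 1492 lower in Angus. The lower ones became 256 with TMM and 263 with RLE. Without 1 library the higher calls ranged from 291 (without Angus replicate 2) to 466 and the lower ones from 1059 to 1423. The within-library log2 differences ranged, without 1 library, from 3.87 to 4.91 for HSPB8 to BAG3, from 2.08 to 2.66 for DNAJB4 to BAG3 and from 1.65 to 2.30 for HSPB8 to DNAJB4, and FPKM gave 4.38, 2.53 and 1.85. HSPB8 counts of 28 to 64 in Chinese Simmental limit its precision. Counts of called genes in the gene lists under these alternatives were added after seeing the data, and the block left 7 autophagy and 11 lysosome genes called lower in Angus. Of the 27 other genes lower in Angus (markers and LOC107131398), 13 lost their call with TMM and 14 with RLE.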
